A study of Mus musculus with 12 samples.

Results

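Amino acid transporter genes were followed in the large bowel of normal mice and of mice with chemically induced colitis, each with and without berberine (BBR), a plant alkaloid. The genes were the rows of the expression table whose symbols belong to the carrier families Slc1, Slc3, Slc6, Slc7, Slc36, Slc38 and Slc43, without Slc7a11, and whose mean over the 12 mice was at least 0.1 FPKM. FPKM is a level per transcript length and sequencing depth. The pattern matched 61 rows apart from Slc7a11, and 44 of the 17734 rows of the table passed the minimum. Of these, 43 encode carriers, and Slc7a6os matches by its symbol only. The 17 rows under the minimum included Slc6a13, which carries GABA, the brain glutamate carrier Slc1a2 and the glycine carrier Slc6a5. Just inside it were Slc38a4 with a mean of 0.124 FPKM and Slc1a7 with 0.135, and just outside it Slc7a3 and Slc1a6 with 0.0875 each.

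All 12 animals were male C57BL/6 mice, 8 to 10 weeks old by the study's methods and with no altered allele named, 3 in each of 4 groups. Normal mice drank water. Colitis mice received 2.5% dextran sulfate sodium (DSS), which damages the lining of the bowel, dissolved in their water over 7 days. The other two groups, normal and colitis mice receiving BBR, were given 100 mg/kg daily by gavage, during 6 days according to the labels and 7 according to the methods. The labels give the tissue as colorectum and the methods as rectum. Each mouse is named here by its group and its number in the labels, which is 1, 3 or 4 for every normal mouse, with or without BBR. Colitis mice without BBR are numbered 1, 2 and 4, and those receiving it 2, 3 and 4. Where values of 1 group are listed, they follow that order.

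Amino acids cross cell membranes mainly through carriers. Some carriers move them with sodium or protons, and others exchange 1 amino acid for another. The heteromeric carriers consist of a heavy chain, which brings the complex to the membrane, and a light chain, which carries the substrate. Slc3a1 (rBAT) pairs with Slc7a9 in the apical membrane of small intestine and kidney, where the pair takes up cystine and basic amino acids. Slc3a2 (4F2hc) pairs with Slc7a5, Slc7a6, Slc7a7 or Slc7a8, mostly in basolateral membranes and in growing cells. Most uptake of amino acids from the diet takes place in the small intestine, upstream of the tissue studied here.

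The promoters of Slc3a1 and Slc7a9 are shown because these partners had the largest positive differences between colitis and normal mice among the 44 genes. Each window runs from 250 bases before to 50 bases after the start of the gene in RefSeq, on the build GRCm38.p6, and is written 5′ to 3′ on the strand of the gene. The authors aligned their reads to another build, mm9. The capitals mark matches on either strand to CAAAGTCCA, a form of the motif bound by the epithelial factor HNF4, or to GTTAAT, a short form of the HNF1 motif.
Slc3a1, chr17:85028097-85028396, plus strand: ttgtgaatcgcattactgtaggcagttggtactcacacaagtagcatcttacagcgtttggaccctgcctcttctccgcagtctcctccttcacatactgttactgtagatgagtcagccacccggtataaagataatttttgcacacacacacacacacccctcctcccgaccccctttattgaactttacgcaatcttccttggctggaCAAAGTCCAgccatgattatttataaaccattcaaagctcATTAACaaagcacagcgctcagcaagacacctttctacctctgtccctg
Slc7a9, chr7:35448842-35449141, plus strand: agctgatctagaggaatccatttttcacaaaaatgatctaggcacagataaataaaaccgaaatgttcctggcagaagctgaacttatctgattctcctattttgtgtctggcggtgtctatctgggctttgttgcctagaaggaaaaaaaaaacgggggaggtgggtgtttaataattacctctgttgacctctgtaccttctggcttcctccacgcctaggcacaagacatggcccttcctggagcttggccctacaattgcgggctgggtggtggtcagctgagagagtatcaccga
The Slc3a1 window held both motifs, GTTAAT on the reverse strand. CAAAGTCCA was found in 0.475% of the 32851 windows of all genes and GTTAAT in 7.10%. Windows were listed for 33 of the 44 genes, with 51 windows in all. Of these, 1 held CAAAGTCCA, that of Slc3a1, and 5, or 9.80%, held GTTAAT. The Slc7a9 window held neither. A further search, for the core of the amino acid response element, TGATGNAA, matched 3.97% of all windows and 3 of the 51, or 5.88%, which belong to the neutral carrier Slc1a4 and the light chain Slc7a7. None of these matches is evidence of binding.

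The tissue carried the markers of colonic epithelium, with Epcam at 780 to 1201 FPKM and Vil1 at 237 to 387 FPKM in the 12 mice. The 6 squamous keratins summed to 0.74 to 7.66 FPKM, and of the 4 tested 2 were higher and 2 lower in colitis than in normal mice. Their differences on the log2 scale were 2.18 ± 0.56 for Krt6a, 1.92 ± 0.80 for Krt13, −0.10 ± 0.61 for Krt14 and −0.60 ± 0.40 for Krt15, and the groups overlapped for Krt13 and Krt14. The mice numbered 4 stood apart in every group. Their columns summed to 482194 to 504337 FPKM, against 696286 to 765876 in the 8 mice numbered 1 to 3, and 872 to 1086 of their genes were at 0, against 1332 to 1926. The steps between low values placed 3 reads on a transcript of 2000 bases at 0.0785 to 0.0885 FPKM in the mice numbered 4 and at 0.106 to 0.117 FPKM in the 8 others. This level accounts for counting error alone, since the table holds no read counts. Colitis mouse 4 receiving BBR also stood apart from the 2 other mice of its group. S100a8, a neutrophil gene, was at 0.31 FPKM in it and at 118 and 148 FPKM in the other two, while 6 smooth muscle markers summed to 3435 FPKM in it and to 494 and 475 FPKM in the other two. The differences named below for this group were also computed without this mouse. In bulk tissue, fewer cells of a type and less RNA per cell cannot be told apart.

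In normal mice the most abundant carrier was Slc6a14, a broad carrier of neutral and basic amino acids driven by sodium and chloride, with 313 ± 90.3 FPKM (SD, n = 3). The creatine carrier Slc6a8 followed with 208 ± 27.5 FPKM, and the ranges of these 2 genes did not overlap. Next came Slc36a1, a proton-coupled carrier of small neutral amino acids, with 76.4 ± 20.6 FPKM. Slc1a5, the glutamine exchanger ASCT2, had 51.9 ± 5.09 FPKM and Slc38a2, a sodium-coupled carrier of small neutral amino acids, 46.0 ± 12.9 FPKM. The ranges of Slc36a1 and Slc1a5 overlapped, as did those of Slc1a5 and Slc38a2 and of Slc38a2 and Slc3a2. The heavy chain Slc3a2 had 34.6 ± 1.04 FPKM. The rest of the 10 most abundant were Slc38a10, Slc38a6, the light chain Slc7a7 and the taurine carrier Slc6a6, with means of 22.3, 21.5, 20.2 and 15.3 FPKM. In all, 13 of the 44 genes had a mean of at least 10 FPKM in normal mice, and 12 were under 1 FPKM. The latter included Slc6a11 and Slc6a12, which carry GABA and, for Slc6a12, betaine.

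**Figure D1:**
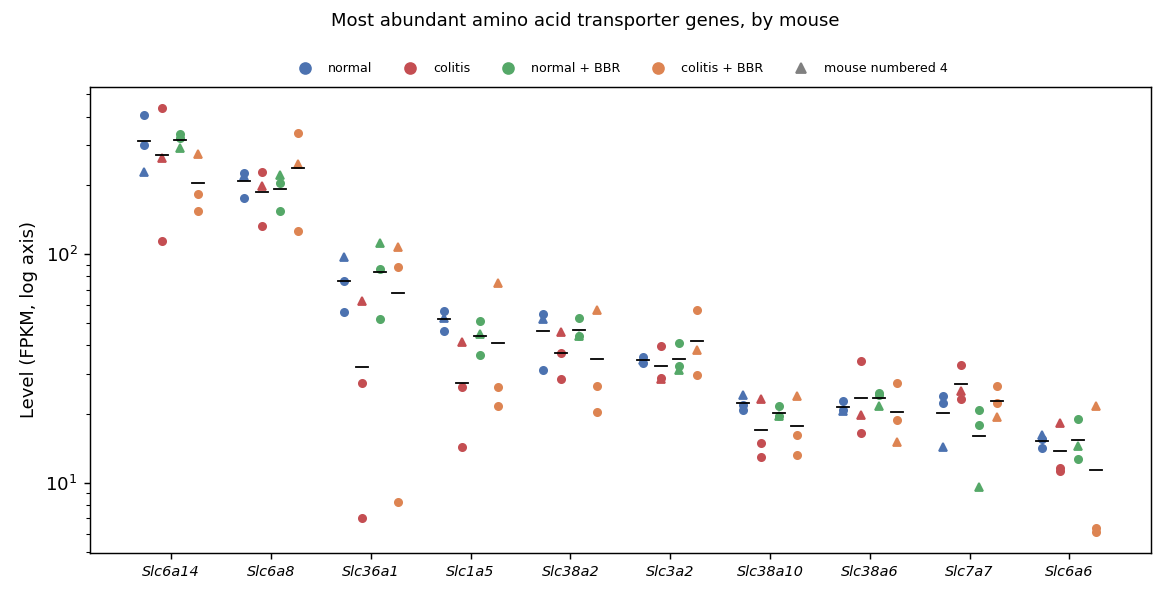
Level in FPKM on a log axis (y) of the 10 amino acid transporter genes with the highest mean in normal mice (x), with 1 point per mouse, coloured by group, triangles for the mice numbered 4 and a bar at each group mean. Slc36a1 spreads most widely, from 7.02 to 62.4 FPKM in colitis mice and from 8.24 to 108 FPKM in colitis mice receiving BBR, while Slc3a2 stays between 28.5 and 57.1 FPKM in all 12 mice.

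The first comparison asked which carriers differed after DSS. The partners Slc3a1 and Slc7a9 were higher in colitis mice. Slc6a12, Slc6a11, Slc1a3 and Slc7a8 were lower and had the smallest p-values of the 44 genes. Slc3a1 was at 3.26, 2.10 and 0.64 FPKM in normal mice and at 23.1, 6.99 and 3.98 FPKM in colitis mice. Each colitis mouse lay above all 3 normal mice. The difference was 2.31 ± 0.98 (standard error) on the scale log2(FPKM + 0.1), on which all differences here are given and which understates those of low genes, with an adjusted p of 0.206 by limma. Slc7a9 was at 6.95, 3.81 and 3.01 FPKM in normal mice and at 34.6, 12.6 and 10.6 FPKM in colitis mice, again without overlap. Its difference was 1.93 ± 0.89, with an adjusted p of 0.235. Within the mice numbered 1 to 3 and within those numbered 4, 1 mouse against 1, the differences were 2.24 and 2.46 for Slc3a1, and 2.0 and 1.79 for Slc7a9.

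Slc6a12, the betaine and GABA carrier, had the smallest adjusted p of the 44 genes, 0.075 by limma. It was at 0.42, 0.39 and 0.33 FPKM in normal mice and at 0.03, 0.03 and 0.16 FPKM in colitis mice. The groups did not overlap, and the difference was −1.55 ± 0.40. Of the colitis values, 2 lay below 0.0848 FPKM. That is the worth of 3 reads on the longest annotated transcript of this gene, in the mouse where it is highest. Slc6a11, a GABA carrier, was at 0.37, 0.55 and 0.34 FPKM in normal mice and at 0, 0.02 and 0.20 FPKM in colitis mice. Its difference was −1.74 ± 0.52, with an adjusted p of 0.108, and 2 of the colitis values lay below the 3-read level of 0.0519 FPKM. With a pseudocount of 1 in place of 0.1 the differences were −0.36 for Slc6a12 and −0.41 for Slc6a11, so their size depends on the pseudocount. Slc6a11 reached the minimum of 0.1 FPKM through the mice without DSS. Its means were 0.42 and 0.25 FPKM in normal mice without and with BBR, and 0.0733 and 0.0233 FPKM in colitis mice. Slc6a15 was alike, with 0.203, 0.303, 0.0433 and 0.0667 FPKM in that order. Genes kept in this way can be counted only as lower after DSS, here and among the mice receiving BBR. Their place in those counts is no support for a decrease.

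Slc1a3, the glutamate carrier of glia, was at 0.15, 0.28 and 1.07 FPKM in normal mice and at 0.02, 0.08 and 0.11 FPKM in colitis mice. The lowest normal mouse was close to the highest colitis mouse, and the difference was −1.54 ± 0.56, with an adjusted p of 0.157. Without normal mouse 4 it was −0.90. Slc7a8, the light chain LAT2, was at 3.98, 3.68 and 7.17 FPKM in normal mice and at 1.51, 1.47 and 2.76 FPKM in colitis mice. No colitis mouse reached the lowest normal mouse. Its difference was −1.32 ± 0.48, with an adjusted p of 0.159. Slc1a5 was at 56.4, 46.4 and 52.9 FPKM in normal mice and at 26.4, 14.4 and 41.1 FPKM in colitis mice, a difference of −1.05 ± 0.45 with an adjusted p of 0.206, or −0.65 without colitis mouse 2. Of the 10 most abundant carriers it was the only one whose groups did not overlap. For Slc1a5 the mice numbered 1 to 3 gave −1.39 and those numbered 4, 1 against 1, gave −0.36.

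None of the 44 genes passed limma's adjusted limit of 0.05 between colitis and normal mice, which 1.08% of the 15315 genes tested did. At the limit used in the study's methods, P of 0.05 or less without adjustment, 1 gene was higher (Slc3a1) and 5 were lower (Slc6a12, Slc6a11, Slc1a3, Slc7a8 and Slc1a5). Of all genes, 5.56% were higher and 15.9% lower at that limit. The groups did not overlap for 11 of the 44 genes, or 25%, against 29.3% of all genes. Beside the 7 genes above these were the serotonin carrier Slc6a4, Slc6a15 and Slc6a17, carriers of neutral amino acids known from neurons, and the lysosomal amino acid sensor Slc38a9, all lower. The median difference of the 44 genes was −0.31, and that of all genes was −0.32. Thus 34 of the 44 were lower and 10 higher on the values as deposited. Quantile normalization, which moved the median of all genes to −0.05, gave 23 lower and 21 higher, and centring each mouse on its median gave 21 lower and 23 higher. At the unadjusted limit quantile normalization gave 2 higher and 5 lower genes, with 1488 higher and 1521 lower over all genes, against 852 and 2428 without it. Centring gave 2 higher and 4 lower, with 1442 and 1245 over all genes. Under both settings Slc7a9 joined the higher genes and Slc1a5 left the lower ones, and under quantile normalization Slc6a15 joined the lower ones. On the values as deposited, the 6 genes at the unadjusted limit became 2 without normal mouse 4 or without colitis mouse 1, 12 without colitis mouse 4 and 10 without colitis mouse 4 receiving BBR. Of all genes, 852 higher and 2428 lower at that limit became 758 and 1636, 770 and 1514, 937 and 3870, and 924 and 3186 in the same order. With a block for the mice numbered 4, Slc6a12, Slc3a1 and Slc6a17 passed limma's adjusted limit, with adjusted p-values of 0.0273, 0.0441 and 0.0488, as did 1412 of all genes. In the mice numbered 1 to 3 alone Slc6a12 and Slc6a11 did, with 0.0334 and 0.0414, and 804 of all genes. Without colitis mouse 3 receiving BBR the serotonin carrier Slc6a4 passed with 0.0420, beside 638 of all genes, and without mouse 4 of that group Slc6a12 passed with 0.0382, beside 818.

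By role, all 4 cationic carriers, all 3 proton-coupled carriers and all 3 genes of the Slc43 family had negative differences in colitis mice. The medians of these groups were −0.42, −0.78 and −0.29, so the first and the last lay near the median of all genes, and no gene of these groups reached the unadjusted limit. With quantile normalization 2 of the 4 cationic carriers, 1 of the 3 proton-coupled carriers and 1 of the 3 Slc43 genes turned positive. The 8 sodium-coupled neutral carriers of the Slc38 family had differences of −0.48 to 0.55, with a median of −0.31. Slc36a1 was at 55.8, 76.4 and 97.1 FPKM in normal mice and at 27.3, 7.02 and 62.4 FPKM in colitis mice. The groups overlapped, and its difference was −1.70 ± 0.92, or −0.85 without colitis mouse 2. Slc6a14 was at 408, 301 and 229 FPKM in normal mice and at 437, 114 and 263 FPKM in colitis mice. Those ranges overlapped widely.

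**Figure D2:**
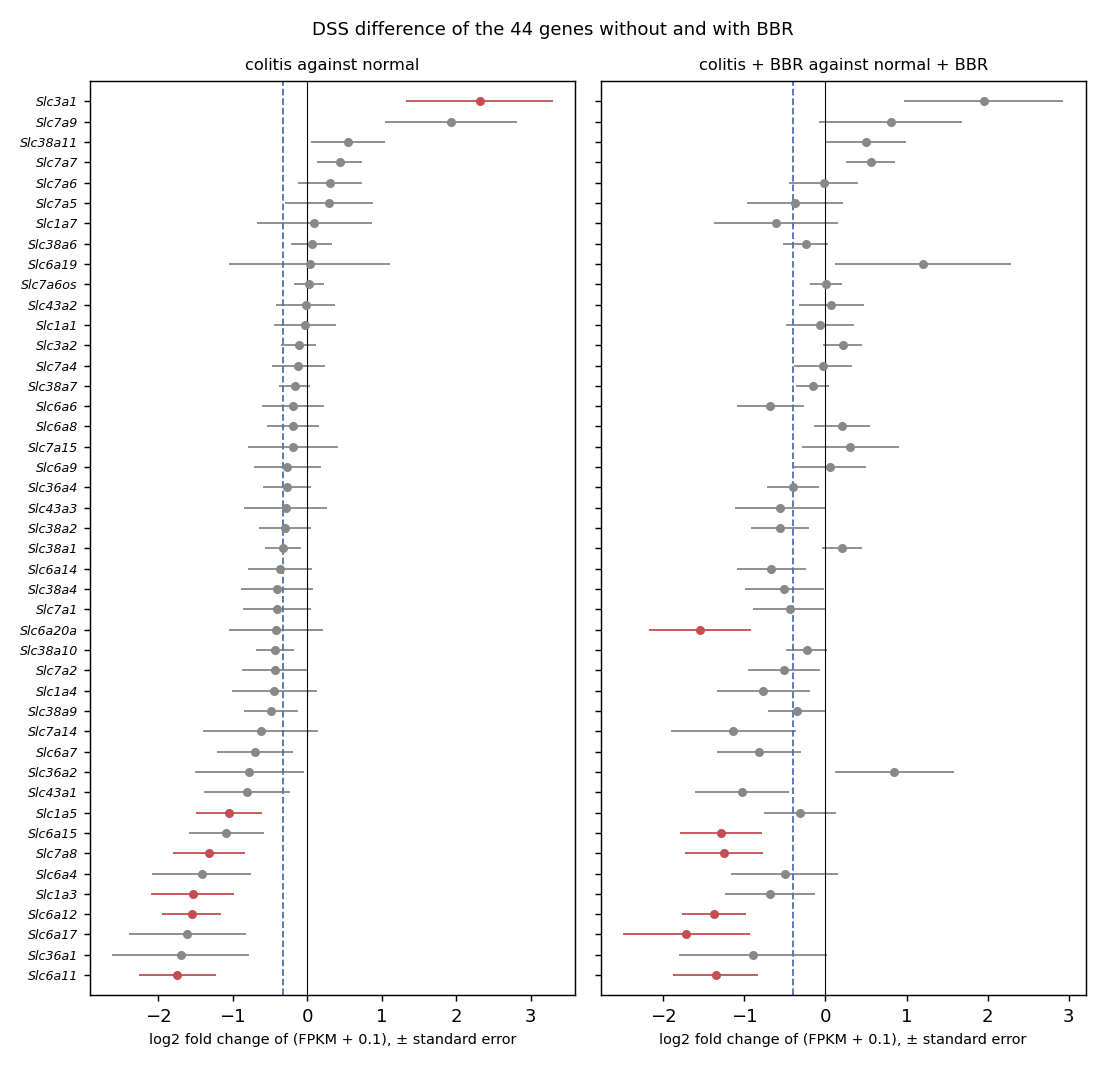
Difference after DSS for each of the 44 genes (y) as the log2 fold change of FPKM + 0.1 with its standard error (x), without BBR on the left and with BBR on the right. The dashed line is the median of all genes tested, at −0.32 and −0.40, and red marks an unadjusted P of at most 0.05, which 6 genes reached on each side, among them Slc6a12, Slc6a11 and Slc7a8 on both.

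Markers of other cell types were compared in the same mice. The 6 smooth muscle markers were all lower in colitis mice, with a sum of 70.9 to 651 FPKM against 1628 to 3039 FPKM in normal mice. The 4 endothelial markers were all lower too, with sums of 3.86 to 9.19 against 15.2 to 18.0 FPKM. Of the 8 markers of enteric neurons and glia, 6 were lower, and their sums overlapped, with 9.04 to 22.4 FPKM in colitis mice and 8.12 to 19.6 FPKM in normal mice. The other 2 were Ret, which was at 0.90, 0.52 and 2.04 FPKM in normal mice and at 7.16, 8.66 and 2.01 FPKM in colitis mice, and the glial Gfap, with a difference of 0.67 ± 0.70. Markers of B and plasma cells summed to 34.2 to 94.5 FPKM in colitis mice and to 189 to 238 FPKM in normal mice. All 4 tested neutrophil markers were higher in colitis mice, with sums of 43.3 to 481 against 0.26 to 2.14 FPKM, as were all 5 enteroendocrine markers, with sums of 592 to 4374 against 407 to 680 FPKM. The 9 colonocyte markers had a median difference of −0.06. Among the mice receiving BBR, all tested smooth muscle, endothelial, fibroblast and T cell markers were lower after DSS. Their median differences were −1.76, −1.24, −1.29 and −0.41. Of the 8 neuron and glia markers 6 were lower there, and all tested neutrophil, enteroendocrine and goblet markers were higher. The part of these cells in the carrier levels was not tested.

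**Figure D3:**
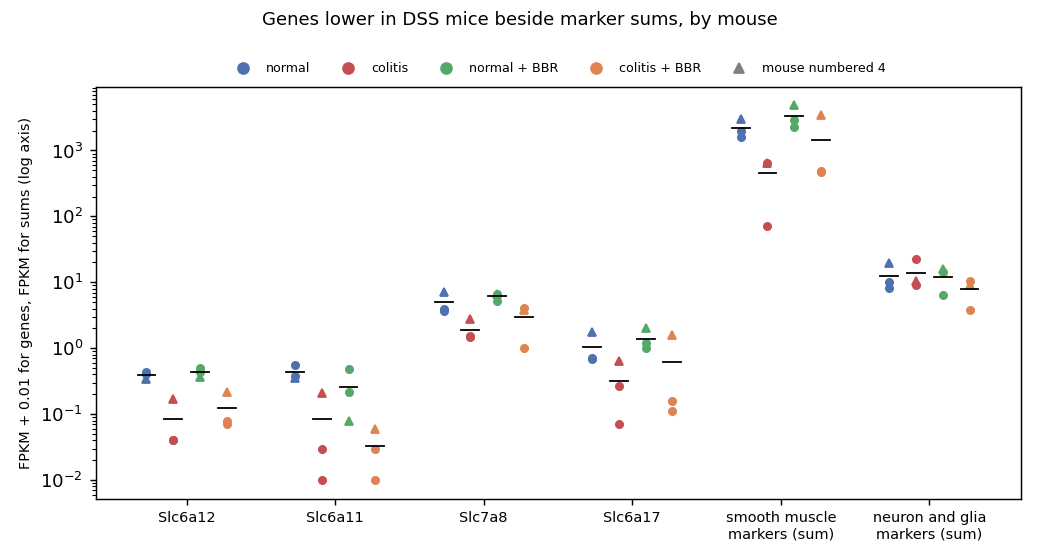
Levels of Slc6a12, Slc6a11, Slc7a8 and Slc6a17 (FPKM + 0.01) and summed levels of the smooth muscle and of the neuron and glia markers (FPKM) on a log axis (y), with 1 point per mouse, triangles for the mice numbered 4 and bars at group means. Slc6a12 lies between 0.33 and 0.50 FPKM in the 6 mice without DSS and at or below 0.21 FPKM in the 6 mice with DSS, and the smooth muscle sum of colitis mouse 4 receiving BBR, 3435 FPKM, lies with the mice without DSS.

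The same contrast was made among the mice receiving BBR. Slc6a12 was at 0.43, 0.50 and 0.36 FPKM without DSS and at 0.07, 0.06 and 0.21 FPKM with DSS. These groups did not overlap either, and the difference was −1.37 ± 0.40, with an adjusted p of 0.214 by limma. Slc6a11 was at 0.47, 0.21 and 0.07 FPKM without and at 0, 0.02 and 0.05 FPKM with DSS. Of the latter, 0 and 0.02 FPKM lay below its 3-read level of 0.0519 FPKM, which is that of the mouse where it is highest. The level is lower in the mice numbered 4. The difference of Slc6a11 was −1.35 ± 0.52. Slc7a8 was at 5.16, 6.74 and 6.58 FPKM without and at 4.02, 1.01 and 3.80 FPKM with DSS, a difference of −1.25 ± 0.48, or −0.63 without colitis mouse 3 receiving BBR. Slc6a20a, a carrier of proline and other imino acids, was at 3.46, 5.0 and 5.13 FPKM without and at 0.98, 1.21 and 2.60 FPKM with DSS. Neither gene's groups overlapped, and the difference of Slc6a20a was −1.55 ± 0.63. Without colitis mouse 4 receiving BBR the differences of Slc6a11, Slc7a8 and Slc6a20a were −1.51, −1.54 and −1.94. In the mice not receiving BBR the Slc6a20a groups overlapped, with colitis mouse 2 at 0.49 FPKM and the other two at 3.47 and 3.97 FPKM.

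None of the 44 genes passed the adjusted limit in this contrast by limma, against 0.0392% of all genes. At the unadjusted limit 6 were lower (Slc6a12, Slc6a11, Slc7a8, Slc6a15, Slc6a20a and Slc6a17) and 0 higher, where 17.3% of all genes were lower and 2.37% higher. Groups did not overlap for 5 genes, all lower, or 11.4%, against 20.2% of all genes. Those were Slc6a12, Slc6a11, Slc7a8, Slc6a20a and Slc6a14. The median over the 44 genes was −0.39, beside −0.40 over all genes. Quantile normalization gave 3 higher (Slc7a7, Slc38a1 and Slc7a6os) and 2 lower genes (Slc6a15 and Slc6a12) at the unadjusted limit, and centring gave 3 higher and 1 lower. Over all genes these settings gave 994 higher and 900 lower, and 1084 higher and 622 lower, against 363 and 2647 on the values as deposited.

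Colitis mouse 4 receiving BBR decided several of these values. Slc3a1 was at 20.3 and 27.2 FPKM in colitis mice 2 and 3 receiving BBR and at 1.47 FPKM in mouse 4, and normal mice receiving BBR were at 3.02, 2.46 and 1.80 FPKM. With all mice the difference was 1.95 ± 0.98, with an adjusted p of 0.277 by limma. Without mouse 4 it was 3.25 ± 0.71, with an adjusted p of 0.0248, and without mouse 3 it was 1.19. Slc6a6, the taurine carrier, was at 6.34 and 6.12 FPKM in mice 2 and 3 and at 21.7 FPKM in mouse 4, with 19.1, 12.7 and 14.4 FPKM in normal mice receiving BBR. Its difference was −0.68 ± 0.41 with mouse 4, with an adjusted p of 0.339, and −1.27 ± 0.25 without it, with an adjusted p of 0.0190. Without mouse 2 or mouse 3 it was −0.39 or −0.37. Slc6a17, Slc6a12 and Slc38a2 also passed the adjusted limit by limma without this mouse, with differences of −2.68, −1.68 and −0.99. With all mice these were −1.72, −1.37 and −0.56, and that of Slc38a2 was −0.25 without mouse 2. The count of all genes past that limit went from 6 to 2255. At the unadjusted limit 3 of the 44 genes were higher and 9 lower without mouse 4, and of all 15315 genes 593 were higher and 5322 lower. The median over the 44 genes was then −0.57, and over all genes it was −0.56.

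**Figure D4:**
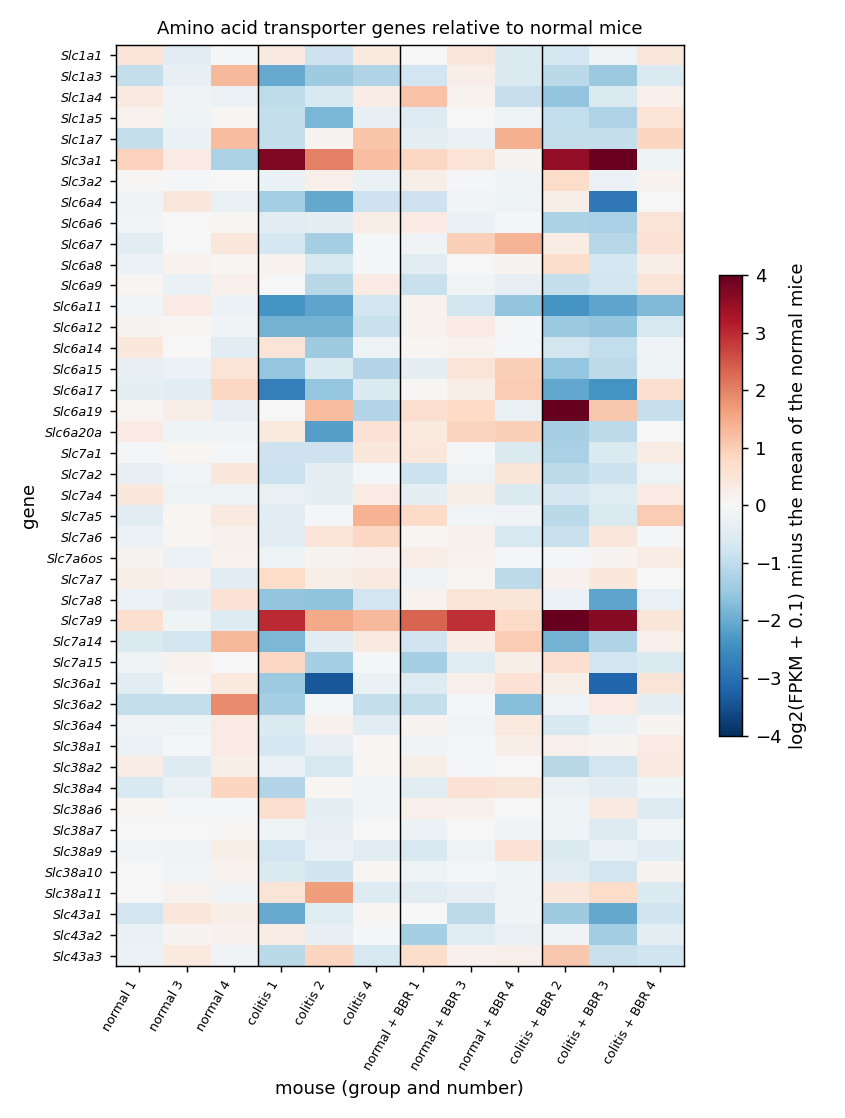
Heat map of the 44 genes (rows) in the 12 mice (columns, with lines between the groups). Colour gives log2(FPKM + 0.1) minus the mean of the normal mice, limited to 4 in either direction. Slc3a1 and Slc7a9 are red in all colitis mice and in colitis mice 2 and 3 receiving BBR, Slc7a9 also in normal mice receiving BBR, and mouse 4 of the colitis mice receiving BBR is close to the normal mice.

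BBR in colitis mice was compared with colitis alone. Slc38a1, a sodium-coupled glutamine carrier, was at 5.47, 7.07 and 9.49 FPKM in colitis mice and at 10.5, 9.80 and 11.2 FPKM in colitis mice receiving BBR. It was the 1 gene of the 44 whose groups did not overlap, 2.27% against 7.08% of all genes. Its difference was 0.54 ± 0.24, with an adjusted p of 0.764 by limma, and without mouse 4 of the BBR group it was 0.49. It was 0.35 without colitis mouse 1. It was also the 1 gene at the unadjusted limit, where 1.19% of all genes were higher and 5.20% lower. None of the 44 passed the adjusted limit by limma, and neither did any of all genes (0.0%), of which 182 were higher and 796 lower at the unadjusted limit. The median over the 44 genes was −0.01, with 22 higher and 22 lower, and over all genes −0.09. At the unadjusted limit there were 485 higher and 630 lower genes with quantile normalization and 458 and 535 with centring, against 182 and 796 on the values as deposited, and Slc38a1 was the 1 member past it in each.

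Slc6a19, the main carrier of neutral amino acids in the small intestinal brush border, was at 13.8 FPKM in colitis mouse 2 receiving BBR and at or below 1.30 FPKM in the other 11 mice. The difference of Slc6a19 was 1.55 ± 1.08 with an adjusted p of 0.986 by limma, and it was 0.05 without that mouse, 2.79 without mouse 4 of the same group and 0.95 without colitis mouse 4. Slc3a2 was at 57.1 FPKM in the same mouse and at 28.5 to 40.9 FPKM in the other 11, and its difference was 0.33 ± 0.24. Without mouse 2, 3 or 4 of the BBR group this difference was 0.08, 0.55 or 0.37. Slc43a2, the neutral carrier LAT4, was at 2.58, 1.61 and 2.01 FPKM in colitis mice and at 1.86, 0.72 and 1.57 FPKM with BBR, a difference of −0.62 ± 0.40 between overlapping groups, which was −0.24 without mouse 3 of the BBR group and −0.75 without mouse 4. Slc6a6 was at 11.3, 11.7 and 18.2 FPKM in colitis mice, and its difference was −0.50 ± 0.41 with all mice and −1.09 ± 0.25 without mouse 4 of the BBR group, with an adjusted p of 0.306 by limma. It was −0.21 without mouse 2 and −0.19 without mouse 3 of that group, and −0.28 without colitis mouse 4. Without mouse 4 of the BBR group Slc7a9 and Slc6a19 were higher and Slc6a6 and Slc38a2 lower at the unadjusted limit, beside 201 higher and 1461 lower of all 15315 genes.

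BBR in normal mice was the remaining comparison of 2 groups. Slc7a9 was at 22.2, 33.5 and 7.33 FPKM in normal mice receiving BBR and at 6.95, 3.81 and 3.01 FPKM in normal mice. The groups did not overlap, although mouse 4 of the BBR group lay only just above normal mouse 1. The difference was 2.01 ± 0.89, with an adjusted p of 1.0 by limma, 2.38 in the mice numbered 1 to 3 and 1.26 in those numbered 4. Its heavy chain Slc3a1 was at 1.80 to 3.02 FPKM in the BBR group and at 0.64 to 3.26 FPKM in normal mice, a difference of 0.49 ± 0.98 that was 0.96 without normal mouse 1, −0.14 without normal mouse 4 and 0.32 without normal mouse 1 receiving BBR. This comparison and that of colitis with normal mice share the normal mice.

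Slc7a9 was the 1 gene of the 44 at the unadjusted limit, where 0.516% of all genes were higher and 0.842% lower, and none of the 44 or of all genes (0.0%) passed the adjusted limit by limma, with 79 of all genes higher and 129 lower at the unadjusted one. Groups did not overlap for 4 of the 44, or 9.09%, against 9.62% of all genes. They were Slc7a9 and Slc6a20a, higher with BBR, and Slc43a2 and Slc38a11, lower. Slc43a2 was at 1.68, 2.25 and 2.31 FPKM in normal mice and at 0.76, 1.43 and 1.66 FPKM with BBR, a difference of −0.71 ± 0.40, or −0.40 without normal mouse 1 receiving BBR. Slc6a7, a proline carrier known from neurons, was at 3.07, 4.03 and 5.64 FPKM in normal mice and at 3.71, 8.03 and 10.8 FPKM with BBR, a difference of 0.72 ± 0.52 with overlap, which was 1.16 without mouse 1 and 0.40 without mouse 4 of the BBR group. Slc36a2, a proton-coupled carrier of small amino acids, was at 1.13 FPKM in normal mouse 4 and at or below 0.31 FPKM in the other 11 mice. Its difference of −0.92 ± 0.73 turned to 0.03 without that mouse. The median over the 44 genes was 0.01, and over all genes −0.02.

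The interaction of BBR and colitis asked whether the difference after DSS was another with BBR than without it. None of the 44 genes and none of all genes (0.0%) passed the adjusted limit by limma. At the unadjusted limit were 0 of the 44, against 0.699% of all genes with a positive and 1.72% with a negative interaction. Quantile normalization gave 251 positive and 206 negative genes and centring 223 and 134, against 107 and 264 on the values as deposited, with 0 of the 44 in each. The smallest p-values of the 44 belonged to Slc36a2, Slc38a1, Slc6a20a, Slc1a5 and Slc1a3. Their interaction terms were 1.63, 0.53, −1.13, 0.73 and 0.85 on the log2 scale, and 1.79, 0.48, −1.52, 0.18 and 0.62 without colitis mouse 4 receiving BBR. Without normal mouse 4 those of Slc36a2 and Slc1a3 were 0.67 and 0.21, and in the mice numbered 1 to 3 alone 0.35 and 0.04. That of Slc1a3 was 1.33 without normal mouse 1. The term of Slc6a20a was −0.73 without colitis mouse 1, −2.03 without colitis mouse 2 and −0.63 without colitis mouse 4, and that of Slc1a5 was 0.33 without colitis mouse 2. For Slc38a1 it was 0.33 without colitis mouse 1. Slc1a5 was at 36.3, 51.0 and 44.8 FPKM with BBR alone and at 26.3, 21.8 and 75.1 FPKM with DSS and BBR, the highest of the 12 mice being mouse 4 of that group. For Slc7a9 the interaction was −1.12 ± 1.25 and for Slc3a1 it was −0.36 ± 1.39, both with an adjusted p of 1.00 by limma. Without colitis mouse 4 receiving BBR these terms turned to 0.04 and 0.94, with adjusted p-values of 0.996 and 0.978 by limma. Leaving out each mouse in turn gave −1.88 to 0.04 for Slc7a9 and −1.12 to 0.94 for Slc3a1, which was also positive without colitis mouse 1 or normal mouse 4, at 0.34 and 0.26.

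The heteromeric carriers allow a comparison within each mouse. In normal mice Slc7a9 was 1.81 to 4.70 times as high as Slc3a1, in colitis mice 1.5 to 2.67 times, with BBR 4.07 to 13.6 times in normal and 2.0 to 4.36 times in colitis mice, all per transcript length. The highest levels of Slc7a9, 88.4 and 54.5 FPKM, were in colitis mice 2 and 3 receiving BBR, and mouse 4 of that group was at 6.02 FPKM, within the range of normal mice. Slc3a2 stayed between 28.5 and 57.1 FPKM over the 12 mice, and its light chains Slc7a5, Slc7a6, Slc7a7 and Slc7a8 together between 18.4 and 36.5 FPKM.

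The make-up of these light chains was described as a share of their summed FPKM, which does not depend on the scaling between mice. Slc7a7, the light chain y+LAT1, which exports basic amino acids, made up 52.3% to 89.9% of the sum. Slc7a8 made up 13.1%, 12.6% and 28.5% in normal mice and 4.14%, 5.17% and 8.01% in colitis mice. It made up 19.1%, 21.9% and 35.9% with BBR alone and 14.4%, 3.29% and 13.9% with DSS and BBR. In both contrasts the groups with DSS lay below those without, with mean differences of −12.3 and −15.1 percentage points. The exact two-sided permutation p was 0.1 for each, the smallest that 3 mice against 3 can give. The share of Slc7a7 overlapped between colitis and normal mice, with an exact permutation p of 0.4. It did not overlap between the 2 BBR groups, with 80.4%, 86.1% and 70.6% in colitis mice and 66.2%, 67.8% and 52.3% in normal mice, and an exact permutation p of 0.1. The shares were chosen after the levels had been seen.

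**Figure D5:**
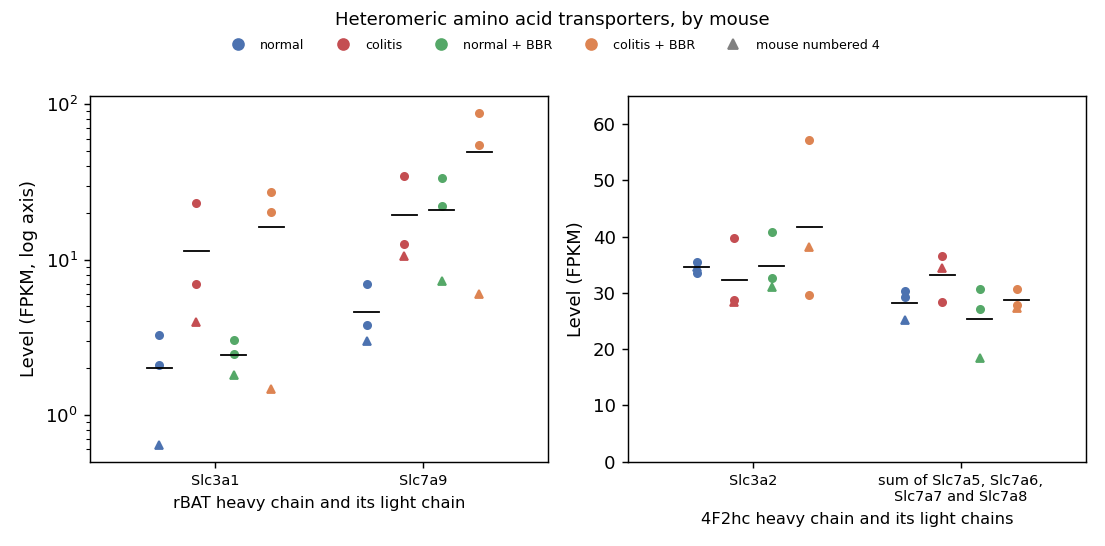
Levels in FPKM (y) of Slc3a1 and its light chain Slc7a9 on a log axis (left) and of Slc3a2 and the sum of its light chains on a linear axis from 0 (right), with 1 point per mouse, triangles for the mice numbered 4 and bars at group means. Slc3a1 lies between 0.64 and 3.26 FPKM in the 6 mice without DSS and above that in 5 of the 6 mice with DSS, while Slc3a2 shows no such split.

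Other carriers of amino acids and peptides, a list of 26 symbols of which 18 were tested, gave 2 higher and 5 lower genes at the unadjusted limit between colitis and normal mice and 0 past the adjusted limit by limma, with a median of −0.42. Of all genes 5.56% were higher and 15.9% lower at the unadjusted limit. The peptide carrier Slc15a1 was at 71.7, 110 and 137 FPKM in normal mice and at 65.9, 39.7 and 62.0 FPKM in colitis mice, without overlap. Slc15a3, a peptide carrier of endosomes in immune cells, was at 0.69, 0.63 and 1.21 FPKM in normal mice and at 2.34, 5.29 and 2.28 FPKM in colitis mice. The colitis mice were all higher. Of the macrophage markers Lyz2, Cd68 and Cd14 were higher in them without overlap, while Adgre1 and Csf1r overlapped, with differences of 0.15 ± 0.38 and 0.03 ± 0.31. The 5 tested had sums of 207 to 650 against 122 to 155 FPKM. Their part in the Slc15a3 level was not tested. In colitis mice receiving BBR Slc15a3 was at 0.80, 1.74 and 0.53 FPKM, all below the colitis mice without it, a difference of −1.64 ± 0.48 with an adjusted p of 0.51 by limma. The 5 macrophage markers were all lower there too, with a median difference of −0.99, and Adgre1 and Csf1r did not overlap. Their part in this difference was not tested. Slc15a3 was the 1 of the 18 at the unadjusted limit in that comparison, beside 1.19% higher and 5.20% lower of all genes, and also for the interaction, −1.54 ± 0.67 with an adjusted p of 1.00 by limma, beside 0.699% positive and 1.72% negative. Between normal mice with and without BBR 0 of the 18 were, beside 0.516% and 0.842%. Between the BBR groups 2 of the 18 genes were higher and 1 lower after DSS at the unadjusted limit, beside 2.37% and 17.3% of all genes.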

How the data were processed

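RNA from the large bowel of 12 mice was sequenced, 3 in each of 4 groups taken from the labels. The labels name a TruSeq kit, and the methods rRNA depletion and another sequencer. The authors cleaned their reads with SOAPnuke, mapped them to mm9 with Bowtie2 2.2.5 and estimated expression with RSEM 1.2.12, the last 2 versions and the build per the submitters' processing notes. The deposited values were read as FPKM from their sums and steps, and TPM with some genes left out cannot be told apart from it. No further scaling between mice was applied. In the mice numbered 4 the steps of low values in genes with 1 transcript fell on transcript length less 25 to 50 bases, and in the others less 250 to 300 bases, so 1 read is not worth the same in both.

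The 15315 of 17734 genes with a mean of at least 0.1 FPKM were fitted as log2(FPKM + 0.1) in limma 3.58.1 (R 4.3.3) over all 12 mice, using 1 mean per group and an empirical Bayes trend. P-values were adjusted by Benjamini-Hochberg over these genes with a limit of 0.05. Ranges, shares and figures were made in Python 3.11.15 with pandas 2.3.3, NumPy 2.4.6 and matplotlib 3.10.9. The fit was tested on simulated data with independent errors for each gene and mouse, which does not cover deviations shared by same-numbered mice. The labels do not say how the mice were housed or processed. The p-values rest on 1 spread per gene, pooled over the 4 groups and adjusted toward that of other genes. This spread also holds what set the mice numbered 4 apart. The members, lists and tests were chosen with earlier results of these data known. The rule for named genes took those past the adjusted limit, the 5 with the smallest p in each comparison and the 10 most abundant in normal mice, and other named genes were chosen after their values were seen. Gene lengths came from GENCODE on GRCm38 and promoters from RefSeq. Alternatives were a pseudocount of 1, no filter, quantile normalization, centring on the median, 2 kinds of block, the 8 mice numbered 1 to 3 alone and leaving out each mouse in turn. Values of 2 genes are not reported here.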

Additional observations from a re-analysis of the deposited data

How the results depend on the processing

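No member passed the adjusted limit under any comparison with a pseudocount of 1, without the filter, with quantile normalization, centred on the median or with the replicate number as a block. With a block for the mice numbered 4, 3 members passed it between colitis and normal mice, and with the 8 mice numbered 1 to 3 alone 2 passed there and 5 between the BBR groups. Members at the unadjusted limit went from 6 to 11 with the replicate block both between colitis and normal mice and between the BBR groups, and from 1 to 3 between colitis mice with and without BBR. Of all genes, 1144 were then higher and 2871 lower, 444 and 2975, and 309 and 1376. With the mice numbered 1 to 3 alone they numbered 15 between the BBR groups, 3 between colitis mice with and without BBR and 1 for the interaction, beside 552 higher and 5408 lower of all genes, 185 and 951, and 135 and 384. Between normal mice with and without BBR they were 0 with a pseudocount of 1 and when centred, beside 92 higher and 187 lower of all genes and 103 and 193, against 79 and 129. Of all genes, 165 passed the adjusted limit between colitis and normal mice, 258 with quantile normalization, 734 with the replicate block, 1412 with the block for the mice numbered 4 and 804 with the mice numbered 1 to 3 alone. Between colitis mice with and without BBR the count of 0 became 4 with a pseudocount of 1, 1 without the filter, 1 with the replicate block and 2 with the block for the mice numbered 4. Between the BBR groups the count of 6 became 2 without the filter, 3 when centred, 268 with the block for the mice numbered 4 and 2302 with the mice numbered 1 to 3 alone.

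Leaving out 1 mouse in turn gave 11 to 818 genes past the adjusted limit between colitis and normal mice, with 0 to 1 members, 0 to 58 between colitis mice with and without BBR, and 0 to 2255 between the BBR groups, with 0 to 5 members. Members at the unadjusted limit ranged from 2 to 12, from 0 to 6, from 0 to 1 between normal mice with and without BBR, from 1 to 12 between the BBR groups and from 0 to 1 for the interaction. The 6 came without colitis mouse 3 receiving BBR, with 499 higher and 1154 lower of all genes, as did the 1 between the BBR groups, with 205 and 1241. The difference of Slc36a2 between normal mice with and without BBR, −0.92, turned to 0.43 in the mice numbered 1 to 3 alone, and leaving out 1 mouse in turn gave −1.39 to 0.034, the latter without normal mouse 4. Of the 5 differences with the smallest p in each comparison, the others kept their sign. The interaction terms of Slc3a1 and Slc7a9, −0.36 and −1.12, turned to 0.94 and 0.04 without colitis mouse 4 receiving BBR, and that of Slc3a1 also to 0.34 without colitis mouse 1, 0.26 without normal mouse 4 and 0.82 in the mice numbered 1 to 3 alone.

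The deviations of same-numbered mice from their groups correlated across genes at 0.34 on average over 13 pairs, 0.50 among the mice numbered 4 and 0.21 among the others, against −0.10 over 41 pairs with different numbers. The lowest of the 13 was at 0.08, and the lowest among the mice numbered 4 at 0.36. The main fit did not take the numbers into account. What same-numbered mice share therefore stayed in the spread behind its p-values, and its counts of genes past a limit rest on that choice. In the 3 pairs of normal mice with and without BBR the correlations were 0.29, 0.11 and 0.66, and the replicate block left 1 member at the unadjusted limit there, beside 148 higher and 244 lower of all genes. Low genes such as Slc6a11 and Slc6a12 lie near the worth of 3 reads, which limits the size of their differences. The causes of these shifts were not tested.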
